A study of Mus musculus with 2 samples.

Results

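The genes described here are 10 regulators of cyclic AMP and G protein signalling, taken by their symbols from the 55450 features of the count tables: Pde4b, Pde4d, Pde2a, Crem, Rgs1, Rgs2, Sgk1, Gnas, Prkar1a and Ptger4. They were read in 2 single-cell RNA libraries. F4/80+ peritoneal cells had been isolated by cell sorting, 1 library from Ankrd22-/- mice (KO), a line made by CRISPR/Cas9, and 1 from Ankrd22+/+ mice (WT). They were chosen by their levels in these same libraries, so those levels are given as a description. F4/80 is the macrophage surface antigen encoded by Adgre1, and no treatment is named for either group. The labels give neither the number, age nor sex of the animals, nor the deleted part of Ankrd22. After filters and removal of likely doublets, 6036 KO cells and 5946 WT cells were kept, with medians of 16004 and 14339 unique molecular identifiers (UMIs) per cell. With 1 library per genotype no test was possible: every difference is between these libraries, the intervals are 95% intervals for counting error only, and animal-to-animal variation is not covered.

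Cyclic AMP is made by adenylyl cyclases when a receptor such as the prostaglandin E2 receptor EP4 activates the stimulatory G protein. It is broken down by phosphodiesterases, and it acts by releasing the catalytic subunits of protein kinase A from their regulatory subunits, after which transcription factors of the CREB family turn on their targets. RGS proteins speed the shut-off of G protein alpha subunits and so shorten signals from chemokine, lipid and other receptors. In macrophages, a rise in cyclic AMP is known to dampen inflammatory cytokine production and to induce IL-10.

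Promoter windows are shown for genes that differed most between the libraries and had a window in the RefSeq table (Rgs2, Pde4b and Sgk1), and for Prkar1a, which is at a near-equal level in both. Where a gene has several windows, the one with the most bases in a searched motif is shown, so the windows were picked for their matches. Each window runs on the gene's own strand from 250 bases before to 50 bases after a RefSeq transcript start in GRCm38.p6. Capitals mark matches, on either strand, to the cyclic AMP response element TGACGTCA, to its core TGACG or to the glucocorticoid response element, searched as GNACA and TGTNC with 3 bases between them. The full element holds the core on both strands, so a match to it also counts for the core.
Rgs2, chr1:144004100-144004399, minus strand: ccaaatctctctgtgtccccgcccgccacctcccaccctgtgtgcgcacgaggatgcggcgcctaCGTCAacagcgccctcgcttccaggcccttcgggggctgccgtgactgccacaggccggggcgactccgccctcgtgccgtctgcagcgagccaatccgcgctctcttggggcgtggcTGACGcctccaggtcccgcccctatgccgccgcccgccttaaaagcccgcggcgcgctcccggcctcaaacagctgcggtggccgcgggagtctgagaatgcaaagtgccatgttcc
Pde4b, chr4:102421305-102421604, plus strand: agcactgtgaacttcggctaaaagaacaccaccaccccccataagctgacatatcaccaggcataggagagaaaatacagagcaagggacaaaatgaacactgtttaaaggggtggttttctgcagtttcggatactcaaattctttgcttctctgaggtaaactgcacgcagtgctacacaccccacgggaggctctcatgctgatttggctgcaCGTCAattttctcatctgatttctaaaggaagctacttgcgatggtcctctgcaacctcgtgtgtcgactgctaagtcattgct
Sgk1, chr10:21993640-21993939, plus strand: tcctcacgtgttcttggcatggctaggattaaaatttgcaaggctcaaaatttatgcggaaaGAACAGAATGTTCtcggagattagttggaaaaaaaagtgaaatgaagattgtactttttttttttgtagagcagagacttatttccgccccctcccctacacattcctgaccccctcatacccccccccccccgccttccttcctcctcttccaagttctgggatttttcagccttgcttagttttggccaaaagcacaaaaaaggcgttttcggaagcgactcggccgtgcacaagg
Prkar1a, chr11:109650612-109650911, plus strand: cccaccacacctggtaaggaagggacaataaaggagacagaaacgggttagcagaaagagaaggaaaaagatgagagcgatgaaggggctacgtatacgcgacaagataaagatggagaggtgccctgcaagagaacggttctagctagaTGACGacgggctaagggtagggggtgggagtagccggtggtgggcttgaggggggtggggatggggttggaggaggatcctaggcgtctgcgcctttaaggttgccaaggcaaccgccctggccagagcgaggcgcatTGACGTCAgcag

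The table held 28 windows for 8 of the 10 genes, with Rgs1 and Crem not among them. The full cyclic AMP response element was in 2 of the 28, both windows of Prkar1a that overlap at the same site, against 1.79% of all 32851 windows. Its core was in 10 of the 28, among them the only window of Rgs2, which holds it at 2 places, against 20.8% of all windows. Some of these windows, of Gnas and of Prkar1a, overlap one another, so they are not all separate sites. The glucocorticoid element was in 1 window, of Sgk1, against 0.475% of all windows. Pde4b had 4 windows and Sgk1 6, and counts from the transcripts' 3' ends do not show which start was used. A match describes letters in a window, and no binding was measured.

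Most cells of both libraries carried the markers of large peritoneal macrophages, the long-lived resident type that depends on the transcription factor GATA6. Clusters were formed without the 10 genes and named from marker lists. Large-macrophage-like cells were 5001 in the KO library and 5054 in the WT library, small-macrophage-like cells 459 and 513, cells with cell cycle markers 521 and 339, and B-cell-like cells 31 and 38. All 12 large macrophage markers were at 20 CPM (UMIs of a gene scaled to a common total per library and state) or more in both libraries, with Adgre1 at 636 CPM in KO and 702 CPM in WT cells and Gata6 at 178 and 158 CPM. All 12 also reached 20 CPM in small-macrophage-like and cycling cells of both libraries. They summed to 25866 CPM in KO and 25078 CPM in WT large-macrophage-like cells, and to 20104 and 18018 CPM in small-macrophage-like cells. The small class was named from its own markers. Those summed to 8828 CPM in KO and 12218 CPM in WT cells, against 231 and 911 CPM in the large class. The libraries hardly mixed: the large class came from clusters 1, 3, 5, 6 and 12 in the KO and from clusters 0, 2, 4 and 11 in the WT library, and the small class from cluster 8 in the KO and cluster 7 in the WT library. Of all barcodes, 15 were found in both libraries. Ankrd22 had 0 UMIs in both, so it does not check the genotype labels.

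Of the 10 genes, Rgs1, Pde4b, Sgk1 and Rgs2 were at least 2-fold lower in KO than in WT large-macrophage-like cells, and none was at least 2-fold higher at 20 CPM or more. Gnas and Prkar1a, which encode core parts of the pathway, differed by at most 1.12-fold between the libraries. For comparison, 5015 genes reached 20 CPM in 1 library or both in this class. Of them 2.13% were lower by 2-fold or more in KO cells and 1.77% were higher by as much, and the median gene had a log2 ratio of 0.21. Of the 10 genes 7 reached 20 CPM, and nothing is read from 4 of 7 against 2.13%, since these libraries chose the genes.

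Rgs1 (ENSMUSG00000026358, chr1:144242296-144249242, minus strand, GRCm38) encodes a regulator of G protein signalling that limits chemokine receptor signals in leukocytes. It was at 206 CPM (203 to 209) in KO and 1576 CPM (1567 to 1585) in WT large-macrophage-like cells, 7.65-fold lower in the KO library (log2 ratio -2.93, -2.95 to -2.91). In small-macrophage-like cells it was at 125 CPM in the KO and 640 CPM in the WT library (log2 ratio -2.35, -2.44 to -2.25). In cycling cells the values were 167 CPM in the KO and 827 CPM in the WT library (log2 ratio -2.30, -2.37 to -2.23). Within each library Rgs1 was highest in the large class, and none of the 3 intervals of the ratio came near 0.

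The distribution of Rgs1 over cells differed as much as its sum. A KO large-macrophage-like cell held a median of 1 Rgs1 UMI, with 10 at the 90th percentile and 45 at most, against a median of 16, a 90th percentile of 53 and a maximum of 208 in WT cells. After each cell was thinned to 2000 UMIs, 24.9% of KO cells (exact binomial interval 23.7 to 26.1%) and 78.3% of WT cells (77.1 to 79.4%) had a Rgs1 UMI. Without thinning the shares were 58.6% of KO and 95.2% of WT cells. The 10% of cells with the most Rgs1 held 50.01% of its UMIs in the KO and 32.9% in the WT library. In B-cell-like cells, at the same 2000 UMIs, the shares were 7.69% of 26 KO cells and 22.2% of 36 WT cells. B cells can express Rgs1, so this is no clean measure of free RNA, and its part in the low KO values was not tested.

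Rgs2 (ENSMUSG00000026360, chr1:143999338-144004161, minus strand) encodes a related protein that acts mainly on the Gq alpha subunit and is itself induced by cyclic AMP in many cells. It was at 298 CPM (295 to 302) in KO and 897 CPM (890 to 904) in WT large-macrophage-like cells, 3.01-fold lower in the KO library (log2 ratio -1.58, -1.61 to -1.56). Small-macrophage-like cells had 164 CPM in the KO and 370 CPM in the WT library (log2 ratio -1.17, -1.26 to -1.08), and cycling cells 199 and 428 CPM (log2 ratio -1.10, -1.17 to -1.03). The median large-macrophage-like cell held 3 Rgs2 UMIs in the KO and 8 in the WT library, and the 90th percentile was 12 and 32. Thinned to 2000 UMIs, 35.9% of KO cells (34.6 to 37.3%) and 67.9% of WT cells (66.6 to 69.2%) had one. Among B-cell-like cells at that depth it was seen in 0 of 26 KO cells, which allows a share of up to 13.2%, and in 11.1% of 36 WT cells.

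Rgs1 and Rgs2 lie 238 kb apart on the minus strand of chromosome 1, with Rgs13 between them and Rgs21 and Rgs18 beyond Rgs1. Rgs13 had 0 UMIs in large-macrophage-like cells of both libraries. Rgs18, a further member of that row of genes, was at 88.4 CPM in KO and 103 CPM in WT cells. Other RGS genes at 20 CPM or more were also close to equal: of 11 listed, 4 reached that level and none was past 2-fold either way. Rgs10 was at 588 CPM in KO and 564 CPM in WT cells, Rgs19 at 91.3 and 85.9 CPM, and Rgs14 at 23.1 and 24.6 CPM. Rgs3, chosen after its values were seen, lay just under 20 CPM, at 19.95 CPM in KO and 12.0 CPM in WT cells (log2 ratio 0.69, 0.57 to 0.80).

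**Figure D1:**
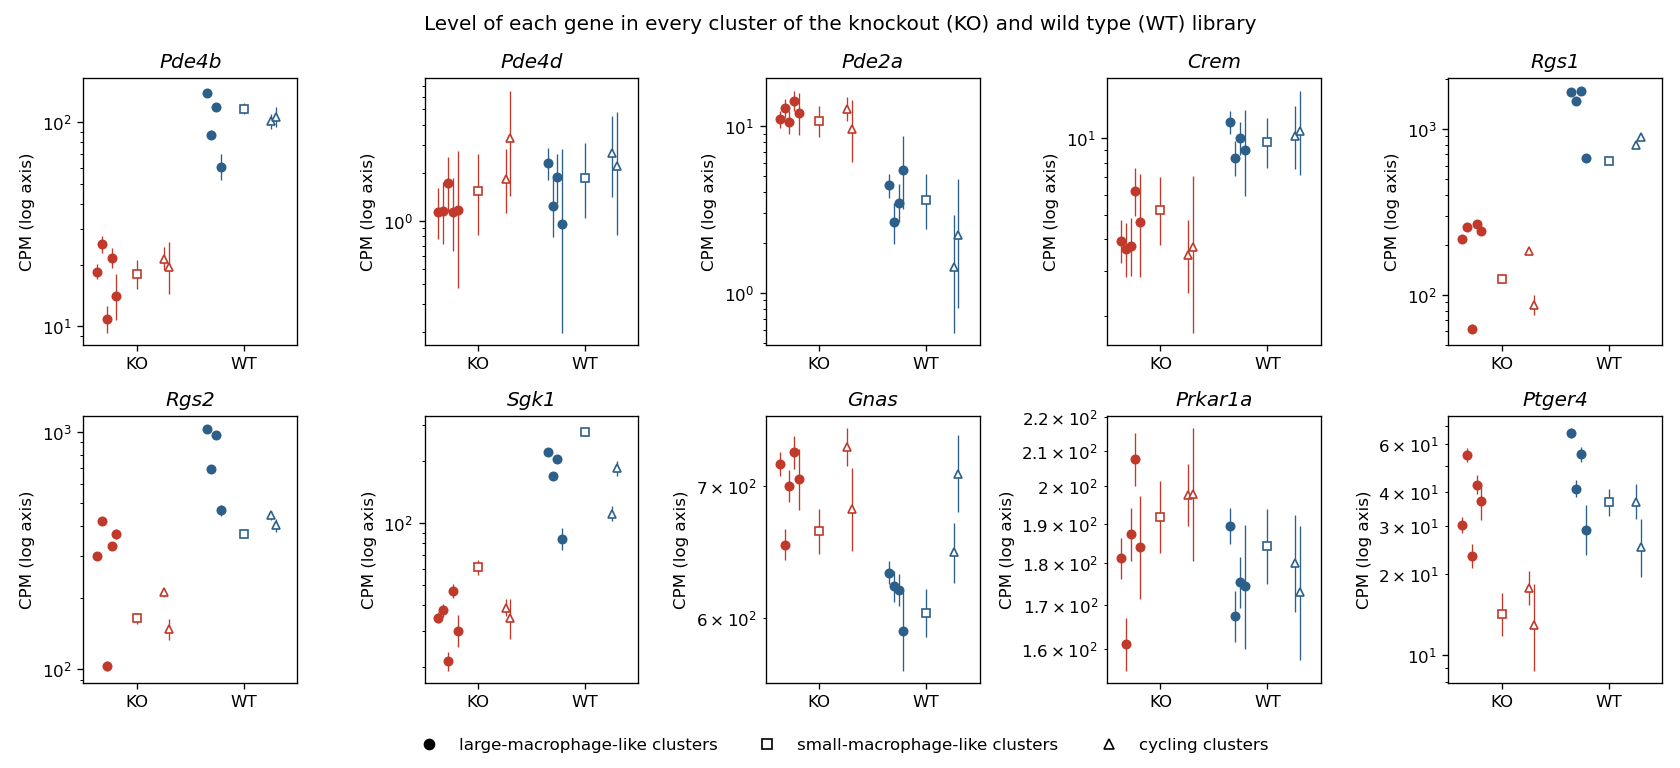
Level of each of the 10 genes in every cluster with at least 20 cells of a library, in CPM on a log axis, KO clusters left of WT clusters; bars are exact Poisson 95% intervals for counting error. All KO points of Rgs1, Rgs2, Sgk1, Pde4b and Crem in large-macrophage-like clusters (filled circles) lie below all WT points, those of Pde2a and Gnas lie above them, and those of Pde4d, Prkar1a and Ptger4 overlap.

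Ptger4 (ENSMUSG00000039942, chr15:5206661-5244187, minus strand) encodes the EP4 receptor, through which prostaglandin E2 raises cyclic AMP. It was at 37.1 CPM (35.8 to 38.5) in KO and 55.2 CPM (53.5 to 56.9) in WT large-macrophage-like cells (log2 ratio -0.56, -0.63 to -0.49), which is under 2-fold. In small-macrophage-like cells it was at 14.3 CPM in the KO and 36.6 CPM in the WT library, 2.55-fold lower in the KO library (log2 ratio -1.29, -1.59 to -0.9999). Cycling cells had 16.8 CPM in the KO and 32.5 CPM in the WT library (log2 ratio -0.91, -1.17 to -0.66). The large-class values by cluster overlapped, running from 23.2 to 54.7 CPM in the KO and from 29.1 to 65.8 CPM in the WT library. Thinned to 2000 UMIs, 7.37% of KO and 9.95% of WT large-macrophage-like cells had a Ptger4 UMI. Among B-cell-like cells at that depth it was seen in 0 of 26 KO cells, which allows up to 13.2%, and in 8.33% of 36 WT cells (1.75 to 22.5%), so no difference from background is read from these shares. Of the other receptors in the list (18 genes for prostanoids, adenosine, catecholamines and similar ligands), 3 reached 20 CPM. Among them, the proton-sensing receptor gene Gpr65 was at 27.3 CPM in KO and 41.5 CPM in WT cells (log2 ratio -0.58), and Calcrl, for a receptor of the calcitonin family, at 29.4 and 20.3 CPM (0.51).

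Gnas (ENSMUSG00000027523, chr2:174284320-174346744, plus strand) encodes the stimulatory G protein alpha subunit. It was at 700 CPM (695 to 706) in KO and 625 CPM (619 to 631) in WT large-macrophage-like cells (log2 ratio 0.16, 0.15 to 0.18), below the 0.21 of the median gene. Small-macrophage-like cells had 663 CPM in the KO and 604 CPM in the WT library, and cycling cells 723 and 671 CPM. Thinned to 2000 UMIs, 73.1% of KO and 71.4% of WT large-macrophage-like cells had a Gnas UMI. Scaling by the trimmed mean of M values (TMM) or by the median of ratios moved the median of all genes to -0.07 and -0.08 and turned the sign of Gnas, to -0.11 and -0.12. The antisense gene Nespas overlaps Gnas on the other strand, and whether the counting used strand is not given in the sources used here. Of 18 other G protein subunit genes, 11 reached 20 CPM and none was past 2-fold either way (median log2 ratio 0.14). The lowest of them was the gamma subunit gene Gng2, at 15.2 CPM in KO and 28.3 CPM in WT cells.

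Pde4b (ENSMUSG00000028525, chr4:102087543-102607259, plus strand) encodes the cyclic AMP phosphodiesterase of the PDE4 family that myeloid cells induce on inflammatory stimulation. It was at 19.0 CPM (18.1 to 19.98) in KO and 117 CPM (115 to 120) in WT large-macrophage-like cells, 6.17-fold lower in the KO library (log2 ratio -2.56, -2.64 to -2.49). Unlike Rgs1 and Rgs2 it hardly depended on the state: small-macrophage-like cells had 17.99 CPM in the KO and 117 CPM in the WT library (log2 ratio -2.64, -2.88 to -2.40), and cycling cells 21.1 and 103 CPM (log2 ratio -2.23, -2.42 to -2.04). A Pde4b UMI was seen in 3.63% of KO (3.12 to 4.18%) and 18.8% of WT large-macrophage-like cells (17.7 to 19.9%) at 2000 UMIs. B-cell-like cells, which are known to use this gene, had one in 6 of 26 KO cells (23.1%) and 5 of 36 WT cells (13.9%), and their summed level was 108 CPM (61.5 to 175) in the KO and 101.4 CPM (66.3 to 149) in the WT library. The B-cell-like intervals overlap, whereas the macrophage intervals do not. The B-cell-like values rest on 16 KO and 26 WT UMIs.

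Pde2a (ENSMUSG00000110195, chr7:101421691-101512827, plus strand) encodes a phosphodiesterase of cyclic AMP and cyclic GMP that cyclic GMP stimulates. It ran the other way from Pde4b, at 11.9 CPM (11.2 to 12.7) in KO and 3.79 CPM (3.36 to 4.27) in WT large-macrophage-like cells (log2 ratio 1.43, 1.27 to 1.59, with 951 KO and 278 WT UMIs). In small-macrophage-like cells it was at 10.7 CPM in the KO and 3.57 CPM in the WT library (log2 ratio 1.35, 0.83 to 1.86). In cycling cells it was at 12.1 CPM in the KO and 1.83 CPM in the WT library (log2 ratio 2.21, 1.64 to 2.75), where the WT value rests on 14 UMIs. All 3 KO levels stayed under 20 CPM, so the gene was not counted as 2-fold higher. After thinning, 2.72% of KO (2.29 to 3.21%) and 0.741% of WT large-macrophage-like cells (0.522 to 1.02%) had a Pde2a UMI, against 0 of 26 KO and 0 of 36 WT B-cell-like cells, which allows up to 13.2 and 9.74%.

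Pde4d (ENSMUSG00000021699, chr13:108449948-109953461, plus strand), a further gene of the PDE4 family, was near the limit of detection. It had 100 UMIs, 1.25 CPM (1.02 to 1.52), in KO and 137 UMIs, 1.87 CPM (1.57 to 2.21), in WT large-macrophage-like cells (log2 ratio -0.35, -0.58 to -0.12). The intervals of its log2 ratio in small-macrophage-like cells (-0.87 to 0.56) and in cycling cells (-0.79 to 0.45) both include 0, so in these 2 states no difference was detectable at this depth. Of 16 other phosphodiesterase genes 2 reached 20 CPM: Pde3b at 30.8 CPM in KO and 25.9 CPM in WT cells, and Pde6d at 20.5 and 22.0 CPM. None of the 10 adenylyl cyclase genes reached 20 CPM in large-macrophage-like cells. The highest of these in the KO library, chosen after its values were seen, was Adcy7, at 13.0 CPM in KO and 11.8 CPM in WT cells.

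Prkar1a (ENSMUSG00000020612, chr11:109649405-109669656, plus strand) encodes the type I alpha regulatory subunit of protein kinase A, which holds the kinase inactive until cyclic AMP binds. It was at 182 CPM (180 to 185) in KO and 180 CPM (177 to 183) in WT large-macrophage-like cells (log2 ratio 0.02, -0.01 to 0.06). Small-macrophage-like cells had 192 CPM in the KO and 184 CPM in the WT library, and cycling cells 198 and 177 CPM. Thinned to 2000 UMIs, 29.98% of KO and 30.01% of WT large-macrophage-like cells had a UMI. The median of all genes lies at 0.21 on this scale, and TMM and median of ratios scaling put Prkar1a at -0.25 and -0.26. Of 8 other kinase A subunit and inhibitor genes, 4 reached 20 CPM in large-macrophage-like cells and none was past 2-fold there, with the inhibitor gene Pkib at 40.6 CPM in KO and 27.6 CPM in WT cells and the catalytic subunit gene Prkacb at 39.3 and 38.4 CPM. In small-macrophage-like cells Pkib was at 44.6 CPM in the KO and 20.1 CPM in the WT library (log2 ratio 1.11). It was the only 1 of 71 pathway genes at 20 CPM or more that was at least 2-fold higher there. Of all 5372 genes at that level in this class, 2.35% were higher by as much, and nothing is read from the count.

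Crem (ENSMUSG00000063889, chr18:3266048-3337748, minus strand) encodes the cyclic AMP response element modulator, whose short inducible form represses CREB targets. Counts here are summed over all its forms. It was at 4.28 CPM (3.84 to 4.76) in KO and 10.2 CPM (9.49 to 10.96) in WT large-macrophage-like cells, with 342 KO and 748 WT UMIs (log2 ratio -1.09, -1.24 to -0.93). Small-macrophage-like cells had 5.21 CPM in the KO and 9.60 CPM in the WT library (log2 ratio -0.77, -1.25 to -0.29), and cycling cells 3.52 and 10.3 CPM (log2 ratio -1.33, -1.77 to -0.87). The gene lay under 20 CPM in every macrophage state of both libraries and was not counted as 2-fold lower.

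Sgk1 (ENSMUSG00000019970, chr10:21882184-21999903, plus strand) encodes a serum- and glucocorticoid-induced kinase that acts on ion transport and FOXO factors. It was at 34.7 CPM (33.4 to 36.0) in KO and 197 CPM (194 to 201) in WT large-macrophage-like cells, 5.70-fold lower in the KO library (log2 ratio -2.48, -2.53 to -2.42). In contrast to Rgs1 and Rgs2, its level was higher in small-macrophage-like cells of both libraries, at 61.2 CPM in the KO and 276 CPM in the WT library (log2 ratio -2.16, -2.29 to -2.02). Cycling cells had 38.0 CPM in the KO and 137 CPM in the WT library (log2 ratio -1.82, -1.97 to -1.67). At 2000 UMIs, 5.96% of KO (5.32 to 6.66%) and 28.6% of WT large-macrophage-like cells (27.3 to 29.9%) had a Sgk1 UMI, against 0 of 26 KO and 5.56% of 36 WT B-cell-like cells. Its relative Sgk3 was at 60.2 CPM in KO and 52.2 CPM in WT cells.

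**Figure D2:**
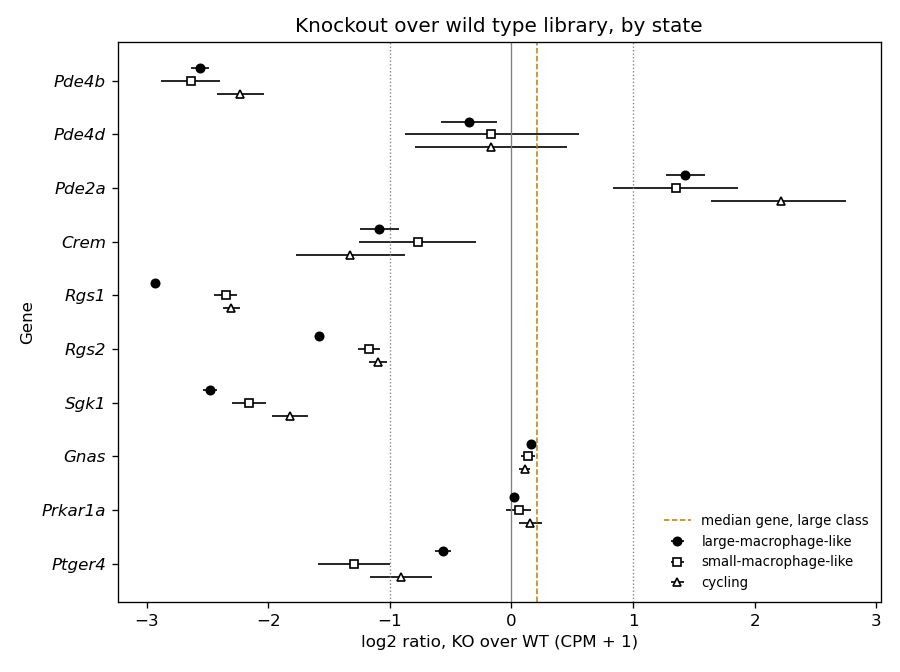
Log2 ratio of KO over WT CPM (1 CPM added to each) for the 10 genes in 3 macrophage states, with bars for 95% counting-error intervals (conditional binomial); dotted lines mark 2-fold and the dashed line the median gene of the large class at 0.21. Rgs1, Pde4b, Sgk1 and Rgs2 lie past 2-fold lower in all 3 states, Ptger4 in small-macrophage-like cells alone, and Gnas and Prkar1a near 0.

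Read by state, the same 4 genes were at least 2-fold lower in KO small-macrophage-like cells, joined by Ptger4, which makes 5 of the 7 genes at 20 CPM or more, where 2.18% of 5372 genes were lower and 2.35% higher by 2-fold or more. In cycling cells 4 of 7 were at least 2-fold lower, where 2.96% of 5406 genes were lower and 2.09% higher by that measure. None of the 10 was called higher in either state. Inside each library, the step between small- and large-macrophage-like cells had the same sign for the genes that differed by state. The log2 ratio of small over large was -0.72 (-0.81 to -0.63) in the KO and -1.30 (-1.34 to -1.26) in the WT library for Rgs1, and -0.86 (-0.94 to -0.78) and -1.28 (-1.33 to -1.22) for Rgs2. For Sgk1 it was 0.80 (0.67 to 0.94) in the KO and 0.48 (0.42 to 0.55) in the WT library, and for Ptger4 -1.31 (-1.57 to -1.07) and -0.58 (-0.75 to -0.42). For Pde4b the intervals included 0 in both libraries (-0.31 to 0.15 in the KO, -0.10 to 0.09 in the WT library). The step was larger in the WT library for both Rgs genes and larger in the KO library for Sgk1 and Ptger4, beyond counting error, with no replicate check.

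The levels also varied between the clusters of the large class, by more in the KO library for Rgs1 and Rgs2. Rgs1 ran from 62.4 to 267 CPM over 5 KO clusters and from 667 to 1682 CPM over 4 WT clusters, a range of 4.29-fold in the KO and 2.52-fold in the WT library. Rgs2 ran from 103 to 422 CPM in the KO and from 467 to 1021 CPM in the WT library. Sgk1 ran from 21.3 to 46.8 CPM in the KO and from 83.7 to 221 CPM in the WT library, and Pde4b from 10.8 to 25.3 and from 60.7 to 139 CPM. KO cluster 5 (941 KO cells) was the lowest KO cluster and WT cluster 11 (229 WT cells) the lowest WT cluster for Rgs1, Rgs2, Sgk1, Pde4b and Ptger4. Cluster 11 is led by the heat shock genes Hspa1a, Hspb1 and Hspa1b, and so is KO cluster 12, in which Rgs1 was at 243 CPM. Leaving out clusters 11 and 12 gave log2 ratios of -2.98 for Rgs1 and -1.64 for Rgs2 in the large class. Leaving out clusters 2, 3, 4 and 5, which have the haemoglobin gene Hbb-bs or the haptoglobin gene Hp among their leading genes, gave -2.75 for Rgs1, -2.72 for Pde4b, -2.43 for Sgk1 and -1.62 for Rgs2.

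**Figure D3:**
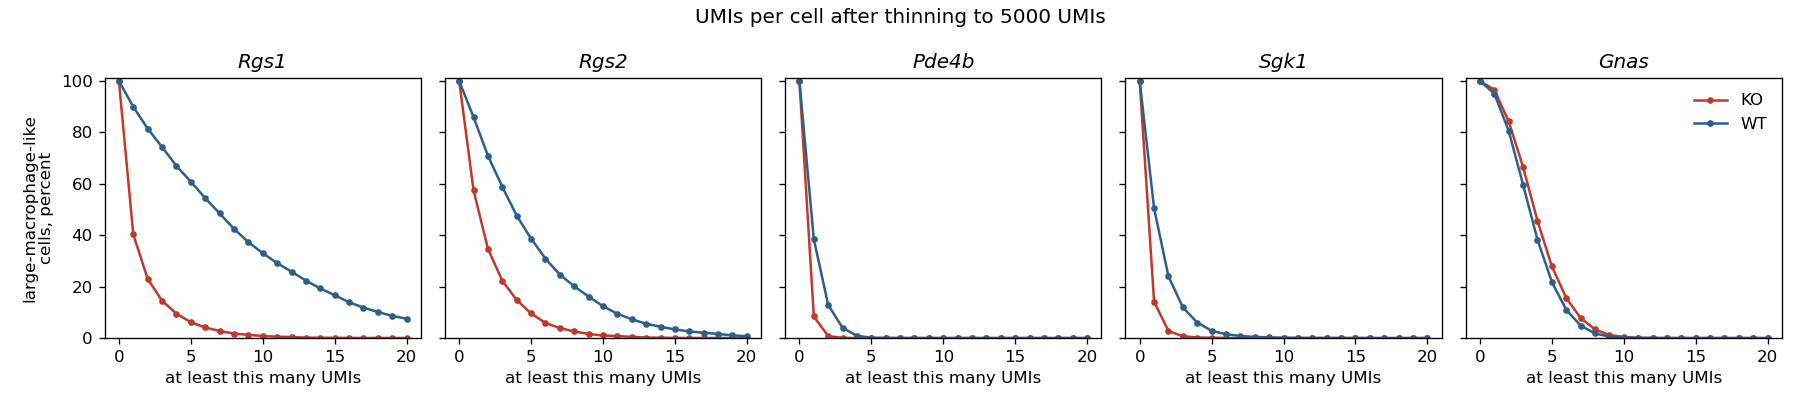
Percent of large-macrophage-like cells (vertical axis) with at least a given number of UMIs of a gene (horizontal axis) after thinning each cell to 5000 UMIs, for KO (red) and WT (blue) cells. At 10 UMIs or more the curves stand at 0.798% of KO and 33.0% of WT cells for Rgs1 and at 1.02% and 12.4% for Rgs2. The Gnas curves lie closer, with KO somewhat above WT, at 66.5% of KO and 59.6% of WT cells at 3 UMIs or more.

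The 4 lower genes were seldom seen together in a KO cell. At 5000 UMIs per cell, 24.4% of 4885 KO and 1.45% of 4760 WT large-macrophage-like cells had no UMI of Rgs1, Rgs2, Pde4b or Sgk1. All 4 were seen in 13 KO cells (0.266%) and 756 WT cells (15.9%). Exactly 1 of the 4 was the most frequent count in KO cells (38.6%, against 7.69% in WT cells) and 3 of the 4 in WT cells (43.6%, against 7.08% in KO cells). These shares follow the lower levels of each gene in KO cells and do not by themselves show how the genes go together.

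Within each library, Rgs1 and Rgs2 were the pair with the highest correlation. Pearson's r of log-scaled values over large-macrophage-like cells was 0.34 in 5001 KO and 0.38 in 5054 WT cells, and 0.26 and 0.34 after thinning to 5000 UMIs. Rgs2 and Ptger4 followed without thinning, with r of 0.16 in KO and 0.11 in WT cells (0.09 and 0.07 thinned, where Pde4b with Rgs2 reached 0.08 in WT cells). Pde4b and Sgk1, which were lower in the KO library by about as much as Rgs1, had r of at most 0.09 with every other of the 10 genes in both libraries. Gnas and Prkar1a had r of 0.08 in KO and 0.08 in WT cells, and 0.03 and 0.01 thinned. All cells of a library share 1 preparation, and counts of a few UMIs per cell hold r down. The mean per KO cell was 0.304 UMIs for Pde4b and 0.554 for Sgk1, against 3.29 for Rgs1. Per WT cell it was 1.70 for Pde4b and 2.86 for Sgk1, against 22.9 for Rgs1. How far low counts set the low values for Pde4b, Sgk1, Pde4d, Pde2a and Crem was not tested, and nothing is read from them.

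**Figure D4:**
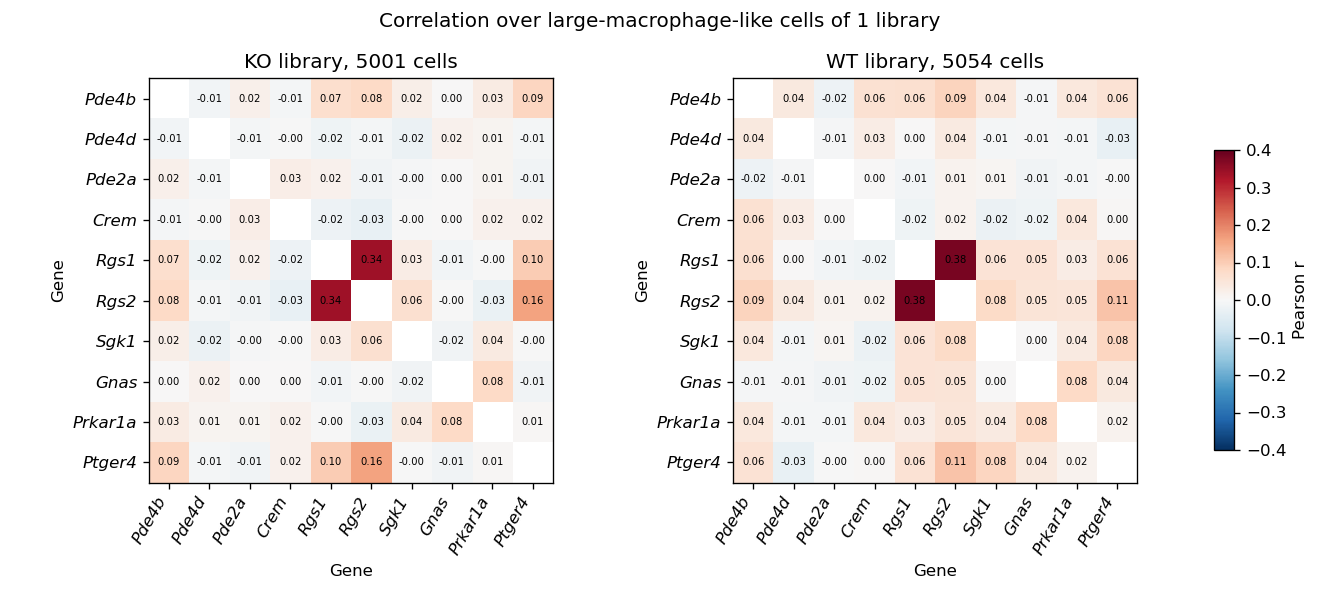
Pearson correlation between the 10 genes over large-macrophage-like cells, KO library left and WT library right, from log-scaled UMIs per 10000; colour and printed value give r. Rgs1 with Rgs2 stands out at 0.34 in KO and 0.38 in WT cells, and every other pair is at or below 0.16.

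The genes whose pattern over cells was most like that of Rgs1 were of the immediate early kind. Among 7835 genes seen in at least 10% of KO cells, the closest to Rgs1 after Rgs2 were Fos (r of 0.29), Dusp1 (0.28), Zfp36 (0.25) and Zfp36l1 (0.19). Among 7185 such genes in WT cells they were Dusp1 (0.37), Fos (0.33), Atf3 (0.27) and Klf6 (0.27). For Rgs2 the closest were Fos (0.36), Zfp36 (0.35) and Dusp1 (0.34) in KO cells, and Rgs1 (0.38), Dusp1 (0.35) and Fos (0.29) in WT cells. Sgk1 stood nearest to Dusp1 in both libraries, at 0.12 in KO and 0.26 in WT cells. The closest to Pde4b in KO cells were the chemokine genes Cxcl2 (0.17) and Cxcl1 (0.14), then Zfp36 (0.13). In WT cells they were the matrix protein gene Thbs1 (0.27), the NF-kB inhibitor gene Tnfaip3 (0.24) and Irf2bp2 (0.21). The neighbours overlapped in part: Zfp36 was also near Rgs1 and Rgs2 in KO cells, and Thbs1 near Rgs2 in WT cells (0.27). Ptger4 was nearest to Rgs2 in KO (0.16) and to Zfp36 in WT cells (0.18). Gnas was nearest to the abundant transcripts Tmsb4x (0.23) in KO and Arhgdib (0.17) in WT cells.

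Immediate early genes, which handling and cell dissociation can also induce, differed between the libraries in part. Of 22 in the list, which was chosen with earlier results of these data known, 19 reached 20 CPM. Of these, 8 were at least 2-fold lower in KO large-macrophage-like cells and none higher, against 2.13% and 1.77% of all genes, and the other 11 were under 2-fold. Their median log2 ratio was -0.57, against 0.21 for all genes, and 5 of the 19 lay above 0, among them Klf2 (0.32) and Egr1 (0.11). Their summed level had a median of 80.8 UMIs per 10000 in KO and 119 in WT cells. Over cells, r with that sum was 0.20 in KO and 0.33 in WT cells for Rgs1, 0.32 in both for Rgs2, 0.10 and 0.24 for Sgk1, and 0.12 and 0.06 for Pde4b. Among cells in a middle range of that sum (67.2 to 137 UMIs per 10000, 2561 KO and 2466 WT cells), the log2 ratios were -2.61 for Rgs1, -2.41 for Pde4b, -2.22 for Sgk1 and -1.20 for Rgs2. Inside that range the libraries still differed, with medians of 95.3 UMIs per 10000 in KO and 103 in WT cells. The part of handling in the differences was not tested.

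Signs of RNA quality also differed. The median mitochondrial share was 1.496% in KO and 0.698% in WT large-macrophage-like cells. Of 16 nuclear-retained and mitochondrial transcripts, 15 reached 20 CPM and 10 were at least 2-fold higher in KO cells, against 1.77% of all genes. Malat1 was at 12633 CPM in KO and 4812 CPM in WT cells. Over cells, r of Rgs1, Rgs2, Sgk1 and Pde4b with the mitochondrial share was at most 0.07 in both libraries. In cells with a mitochondrial share of 0.686 to 1.53% (2696 KO and 2331 WT cells), the log2 ratios were -3.12 for Rgs1, -2.72 for Pde4b, -2.60 for Sgk1 and -1.82 for Rgs2. Inside that range the libraries still differed, with a median mitochondrial share of 1.295% in KO and 1.004% in WT cells. Summed markers of T cells, NK cells, mast cells, mesothelial cells and fibroblasts were each under 2 CPM in large-macrophage-like cells of both libraries. Those of B cells summed to 34.6 CPM in KO and 48.0 CPM in WT cells and those of small macrophages to 231 and 911 CPM. Monocyte markers summed to 541 CPM in KO and 159 CPM in WT cells, with 1 of 7 at 0 in each library, and platelet markers to 3344 and 9472 CPM, with 1 of 5 over 20 CPM in each. In small-macrophage-like cells, monocyte markers summed to 1431 CPM in KO and 189 CPM in WT cells, so that class was not alike in the 2 libraries. The part of these cell types and of RNA quality in the differences was not tested.

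Of the listed genes of the wider pathway lower by 2-fold or more, most were in the list of genes that cyclic AMP is known to induce. No G protein subunit, phosphodiesterase or kinase A gene at 20 CPM or more was past 2-fold in large-macrophage-like cells beside Pde4b. The lists hold 155 genes beside the 10, of which 67 reached 20 CPM in large-macrophage-like cells. Of these, 9 (13.4%) were lower by 2-fold or more in KO cells and 0 higher, against 2.13% and 1.77% of all genes, and their median log2 ratio was 0.05. The list of cyclic AMP-induced genes holds 7 of these 9, which are 7 of its 12 genes at 20 CPM or more (median log2 ratio -1.31). All lists, those of the next paragraph included, were chosen with earlier results of these data known. Nothing is therefore read from their shares against those of all genes. Il10, for the anti-inflammatory cytokine, was at 0.413 CPM in KO and 22.6 CPM in WT cells (log2 ratio -4.06), from 33 KO and 1654 WT UMIs. The AP-1 subunit gene Fosb was at 20.7 CPM in KO and 85.8 CPM in WT cells (-2.00), Thbs1 at 1036 and 2903 CPM (-1.49), and the MAP kinase phosphatase gene Dusp1 at 1008 and 2736 CPM (-1.44). These are also early response or inflammatory genes with other known inducers. Another list holds 14 genes of the CREB family, its coactivators and the salt-inducible kinases. Of these, 9 reached 20 CPM and 1 was lower, the kinase gene Sik1, at 14.4 CPM in KO and 36.5 CPM in WT cells. Sik1 is in both this list and that of cyclic AMP-induced genes.

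Of the remaining lists, glucocorticoid-induced genes, which Sgk1 belongs with, had 3 of 8 lower in large-macrophage-like cells, against 2.13% of all genes: Dusp1, the clock gene Per1 at 17.5 CPM in KO and 45.7 CPM in WT cells, and the metallothionein gene Mt2 at 10.4 and 26.8 CPM. Dusp1 and Per1 are also in the list of cyclic AMP-induced genes and were counted there too. The median log2 ratio of that list was -0.60. None was past 2-fold among 5 receptor kinases and arrestins, 4 kinase A anchors, 5 genes of EPAC and Rap1 and 3 of the SGK family and its substrates at 20 CPM or more, with medians of -0.00, 0.28, 0.19 and 0.20. The highest value in these lists was that of Rap1a, at 408 CPM in KO and 270 CPM in WT cells (0.59).

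**Figure D5:**
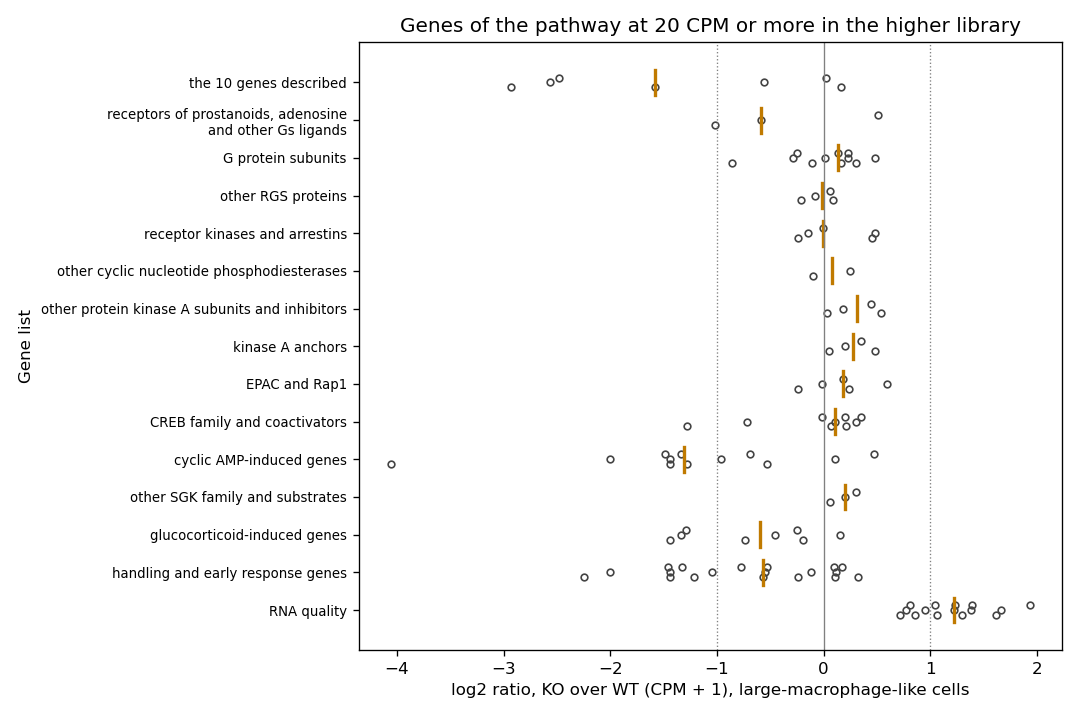
Log2 ratio of KO over WT CPM (1 CPM added) in large-macrophage-like cells for genes of each list that reach 20 CPM in KO or WT cells; circles are genes, bars the median of a list, and dotted lines 2-fold. The cyclic AMP-induced list has its median at -1.31, those from G protein subunits down to the CREB family have medians between -0.01 and 0.31, and the RNA quality list lies to the right at 1.22.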

How the data were processed

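The deposited values are UMI counts per gene and cell barcode, which the authors produced using Cell Ranger 6.1.2 from 10x Genomics 3' v3 libraries, per the file headers and the labels. The submitters' processing notes also list bcl2fastq, Seurat 4.1.0 and the mm9 assembly, yet GENCODE mouse release 21 (GRCm38), used here for positions, holds all 55450 gene identifiers. Whether intronic or antisense reads were counted is not given in the sources used here. Depth was 110956482 UMIs in 6706 KO barcodes and 96869041 UMIs in 6315 WT barcodes.

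A barcode was kept with 500 genes or more and at most 10% of UMIs from mitochondrial genes. Scrublet's own thresholds called 1 barcode in each library, so the highest scores were removed at 0.8% per 1000 barcodes (324 KO, 313 WT). Cells were clustered by the Leiden method (resolution 1, 2000 variable genes without the 10 described, 30 principal components, 15 neighbours, no integration). Clusters were named from markers at least 2-fold above the library's other cells and present in 10% of the cluster's cells or more (3 such markers needed), or, for the large class, 3 seen in 25% of cells. Clusters 15 and 16 (24 KO and 2 WT cells) stayed unnamed. The erythroid marker Hbb-bs (seen in 11.8 to 22.2% of KO and 2.18 to 5.08% of WT cells of a cluster) and the monocyte marker Hp (60.9 to 75.9% and 41.2 to 61.5%) lead clusters 2, 3, 4 and 5 and were left out of the check of leading genes, since every macrophage cluster held them. Their shares varied between clusters, so ratios are also given without these clusters.

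UMIs were summed per library and state and scaled to CPM, and log2 ratios of KO over WT had 1 CPM added to each. A gene counted at 2-fold needed 20 CPM in the higher library. Intervals are exact Poisson (CPM), conditional binomial (ratios) and binomial (shares), and a limit given with 0 cells is the upper end of that last interval. Shares were taken after thinning to 2000 UMIs, which left out 37 KO and 59 WT large-macrophage-like cells. Correlations used log-scaled UMIs per 10000. The ratio step was tested on simulated data. All 10 genes were open to naming, with up to 4 genes of each list by absolute log2 ratio and the 5 most alike genes per library. For 1 gene of the receptor list the result is not reported here. The 10 genes and the lists were chosen with earlier results of these data known. The work used scanpy 1.11.5, anndata 0.12.19, leidenalg 0.10.2, scikit-learn 1.9.0, numpy 2.4.6, pandas 2.3.3, scipy 1.17.1 and matplotlib 3.10.9 under Python 3.11.15. TMM factors came from edgeR 4.0.16 (R 4.3.3).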

Additional observations from a re-analysis of the deposited data

How the results depend on the processing

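Rgs1, Rgs2, Pde4b and Sgk1 stayed at least 2-fold lower in KO large-macrophage-like cells under all 15 ratio settings tried, 4 of them (a middle range of early response level, a middle range of mitochondrial share, no heat shock clusters, and no clusters led by Hbb-bs or Hp) chosen after seeing the data. Their log2 ratios ran from -3.22 to -2.61 for Rgs1, -1.87 to -1.20 for Rgs2, -2.84 to -2.13 for Pde4b and -2.76 to -2.22 for Sgk1. With no minimum CPM, Pde2a made 1 of the 10 genes higher in large- and 1 in small-macrophage-like cells, Crem made 5 lower in the large class, and 3 pathway genes were higher. A minimum of 50 CPM left 4 pathway genes lower, and the middle range of early response level 5. By construction, the 50 CPM minimum tests fewer genes, and the cause of the other changes was not tested. TMM and median of ratios scaling made 43 and 40 genes higher against 169 and 176 lower in the large class (20.3% and 18.5% of calls higher, against 45.4%), and 56 and 53 against 167 and 172 in the small class (25.1% and 23.6%, against 51.9%), and turned the sign of Gnas and Prkar1a in both classes. Ptger4 in small-macrophage-like cells was under 2-fold with 10 CPM added (-0.94) and fell below a minimum of 50 CPM, and its log2 ratio reached -2.17 with the looser cell filter. At clustering resolution 0.5 the small class held 444 KO and 2940 WT cells, and its Rgs1 ratio was -3.59. At resolution 2 it held 136 KO and 667 WT cells. No paired analysis was possible because each genotype has 1 library, and no library could be left out for the same reason. Depth limits Pde4d, with 100 KO and 137 WT UMIs, and every B-cell-like value.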

Other observations

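Several genes of the pathway lists lay under 20 CPM in large-macrophage-like cells and so entered no count of genes at 2-fold, yet had different UMI totals in the libraries. They were picked after their values were seen, and no explanation was tested. Of the cyclic AMP-induced genes, the growth factor gene Vegfa was at 0.413 CPM in KO and 16.8 CPM in WT cells, from 33 KO and 1235 WT UMIs. Areg, for the epidermal growth factor receptor ligand amphiregulin, was at 0.663 CPM in KO and 7.91 CPM in WT cells, and the nuclear receptor gene Nr4a3 at 1.05 and 4.69 CPM. Among receptors that raise cyclic AMP the sign was mixed. The adenosine receptor gene Adora2b was at 11.4 CPM in KO and 4.84 CPM in WT cells, and the prostacyclin receptor gene Ptgir at 18.8 and 9.13 CPM, whereas the beta-1 adrenergic receptor gene Adrb1 was at 0.613 CPM in KO and 2.67 CPM in WT cells. The salt-inducible kinase gene Sik2 was at 10.996 CPM in KO and 4.19 CPM in WT cells, opposite in sign to Sik1.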
